A study of Mus musculus with 14 samples.

Results

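The peaks described here are those that lie on 5S ribosomal RNA genes or their pseudogenes in lists of BMI1 and H2AK119ub peaks from mouse heart cells. They were chosen by position: every listed peak that overlapped, by 1 bp or more, a gene or pseudogene with a symbol starting n-R5s in the RefSeq annotation of GRCm38. This gave 226 of the 39832 peaks of 12 lists. The annotation has 69 such copies, of which 41 lie in a tandem array on chromosome 8 (123.539 to 123.622 Mb) and 28 are scattered over other positions. The array held 181 of the peaks and the scattered copies 45.

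The lists come from chromatin immunoprecipitation (ChIP) sequencing of heart cells of C57BL/6 mice aged 6 to 8 weeks, enriched magnetically for the Sca1+CD45- population. Damage mice had been injected intraperitoneally with 1 dose of 20 mg/kg paraquat in PBS, and Homeostasis mice with PBS. Each of Homeostasis BMI1, Homeostasis H2AK119ub, Damage BMI1 and Damage H2AK119ub had 3 libraries with 1 peak list each, and the 2 Input libraries, labelled as not treated, were not analysed here. The labels describe a culture step at low oxygen and leave unsaid if it came before ChIP. No label states the time from injection to collection, or whether replicates came from separate mice, so the spread between libraries may be technical. The lists hold positions only, so the labelled cell population could not be checked against marker genes.

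5S ribosomal RNA is the smallest RNA of the large ribosomal subunit. Unlike the other ribosomal RNAs it is made by RNA polymerase III outside the nucleolar precursor transcript. Transcription starts from a promoter inside the gene, which the zinc finger protein TFIIIA binds before TFIIIC and TFIIIB are recruited. Mammalian genomes hold a tandem array of 5S genes and many dispersed copies, a large part of them pseudogenes. BMI1 belongs to a Polycomb complex that attaches a single ubiquitin to histone H2A, and H2AK119ub is the histone so modified.

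At homeostasis the array carried peaks in every list of either antibody, at nearly the same number in each. BMI1 lists had 28, 30 and 32 array peaks in replicates 1, 2 and 3. H2AK119ub lists had 30, 31 and 30. The lists themselves were far less alike in length: 5020, 7513 and 4072 peaks for BMI1, and 2000, 13487 and 7523 for H2AK119ub. The longest homeostasis list was 6.74 times as long as the shortest, whereas the highest number of array peaks was 1.14 times the lowest. The same ratio was 1.475 for transfer RNA genes with a peak and 4.5 for peaks on scattered copies. The array thus made up the largest share of the shortest list, at 1.5% of Homeostasis H2AK119ub replicate 1, and the smallest share of the longest, at 0.230% of replicate 2. No array copy carried more than 1 peak in a list, so peaks and copies are counted alike.

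Within the array all listed peaks were on 5S annotations. The array spans 83.3 kb, and its annotated units start 1.67 to 1.73 kb apart (median 1.70 kb). It holds 9 more 5S-sized annotations within these bounds under other symbols, among them Rn5s and Gm25018 (also called Rn5s10), which the choice by symbol left out. The 50 annotations together cover 7.21% of the span. All 231 peaks listed within the bounds lay on them, 181 on copies with n-R5s symbols and 50 on the others, and 0 lay in the 77.3 kb between units. Each of the 9 had a peak in 5 or 6 homeostasis lists. Just past these bounds, which are where the n-R5s symbols stop, the pseudogene Gm23647 had a peak in all 6. The choice by overlap had a wide margin: the smallest overlap of a member was 75 bp, and the nearest peak that missed a copy was 673 bp away from n-R5s33.

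**Figure D1:**
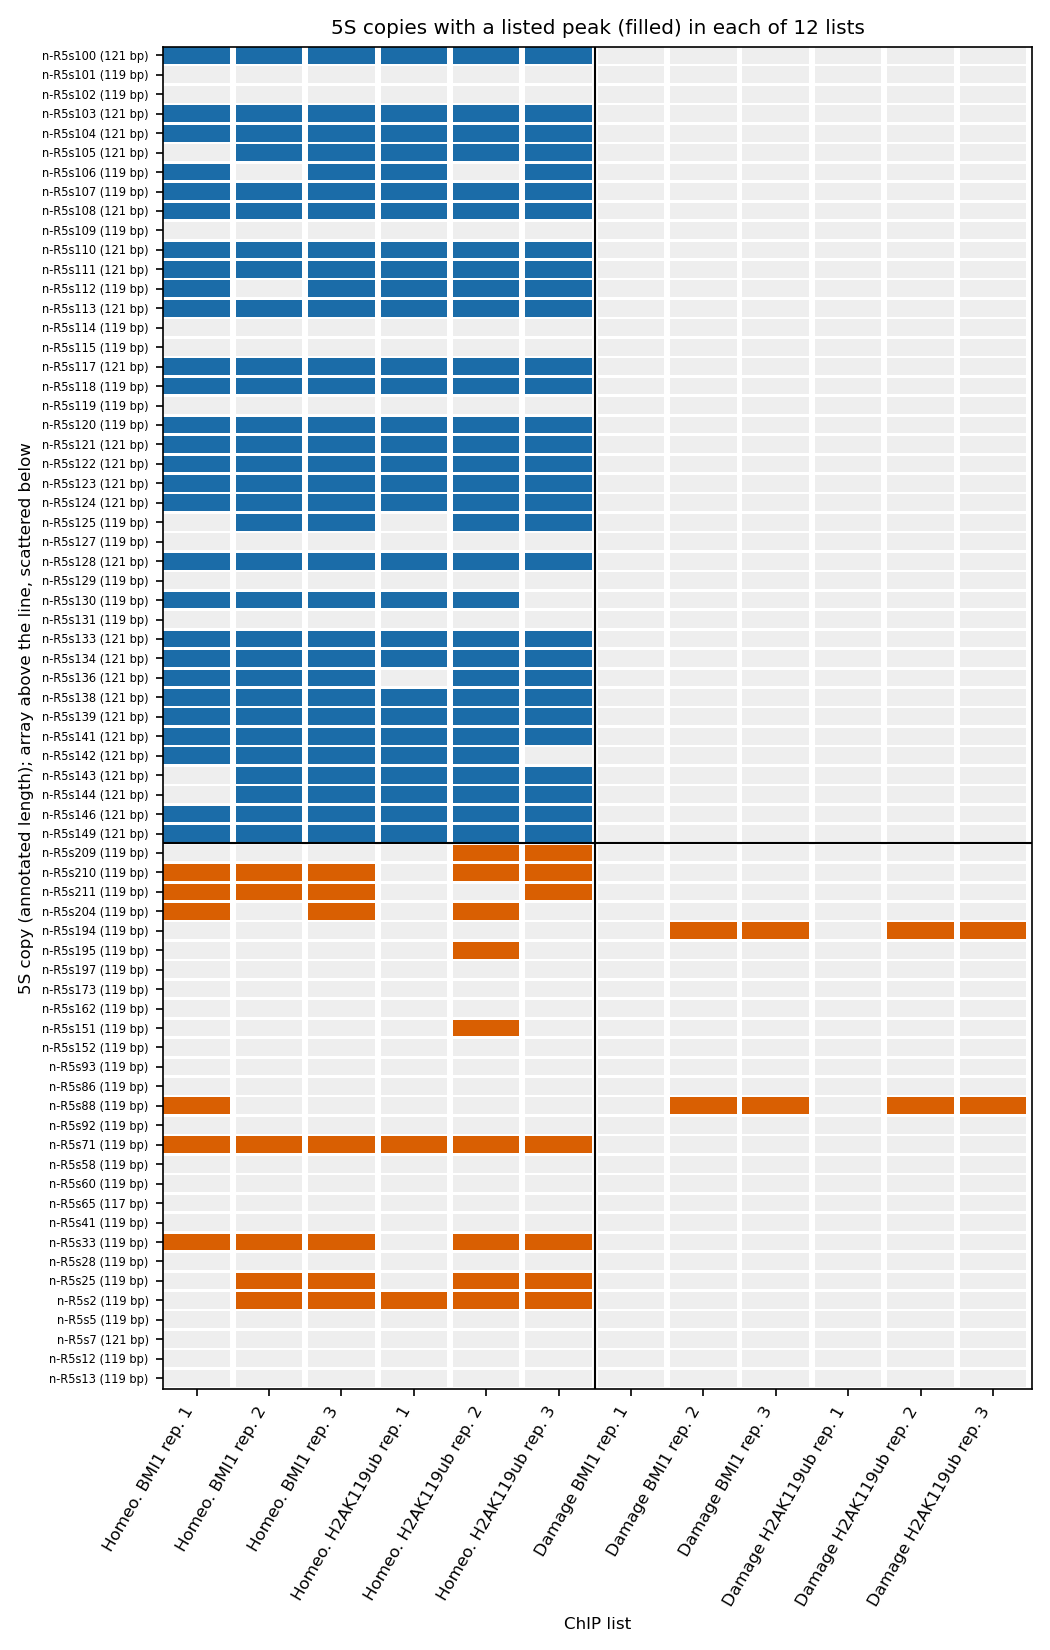
Each row is a 5S copy with its annotated length and each column a ChIP list; filled cells mark a listed peak, blue for the 41 array copies above the line and orange for the 28 scattered copies below it. Of the array rows 23 are filled in all 6 Homeostasis columns and 9 in none, and all are empty in the 6 Damage columns, where the filled cells are those of n-R5s194 and n-R5s88.

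The same array copies recurred from list to list. Of the 41 copies, 32 had a homeostasis peak, all 32 with both antibodies, and 23 had a peak in all 6 homeostasis lists. Another 7 were in 5 lists and 2 in 4 lists. Among all 17310 merged homeostasis regions, 7.18% were in all 6 lists and 50.1% in a single list, against 71.9% and 0 of the 32 array copies. Of the 11 scattered copies with a homeostasis peak the shares were 9.09% and 27.3%. Transfer RNA genes recurred as well. Of those in 2 or more lists, 72 of 94 were in 3 of 3 for BMI1 and 72 of 105 for H2AK119ub, against 26 and 27 of 32 array copies. The 23 copies in all 6 lists are tied, and the first 8 of them by position were n-R5s100, n-R5s103 (123543871 to 123543991), n-R5s104 (123545576 to 123545696), n-R5s107 (123550667 to 123550785), n-R5s108 (123552362 to 123552482), n-R5s110 (123555761 to 123555881), n-R5s111 (123557488 to 123557608) and n-R5s113 (123560886 to 123561006). All 8 are annotated as ribosomal RNA genes. Copies of a tandem array are near-identical in general, and no label says how reads matching several places were assigned. A peak on a single unit is therefore uncertain as to which unit its reads came from.

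Array copies with and without peaks were then compared by annotated length. The array holds 25 copies annotated at 121 bp, all with a RefSeq transcript of the NR_ class, and 16 annotated at a length 2 bp shorter. Of these 16, 15 have a transcript of the XR_ class and the pseudogene n-R5s127 has none. Annotated length and transcript class therefore cannot be told apart here. Every longer copy had a homeostasis peak, 20 of them in all 6 lists and 5 in 5 lists. Of the shorter copies 7 had a peak, 3 of them in all 6 lists. In BMI1 lists 22, 25 and 25 of the 25 longer copies had a peak, against 6, 5 and 7 of the 16 shorter ones. In H2AK119ub lists the numbers were 24, 25 and 24 of 25 against 6, 6 and 6 of 16. The share was higher for the longer copies in 6 of 6 lists, by 50.5 to 68.8 percentage points, a contrast that was noticed in these data and is given without a test. The 9 copies without a peak in any list, named here after their values were seen, were n-R5s101, n-R5s102, n-R5s109, n-R5s114, n-R5s115, n-R5s119, n-R5s127, n-R5s129 and n-R5s131, and n-R5s127 is the only one of the 41 annotated as a pseudogene. Shorter units under other symbols did not share this lack. Gm24312, 2 bp shorter than the longer class, and the pseudogene Rn5s-ps1 (111 bp) had a peak in 5 lists each. The pseudogene Gm23647 (109 bp), just past the bounds used for the array, had one in 6. Neighbouring units could differ in full: n-R5s100 had a peak in 6 lists and n-R5s101, the next unit, in 0.

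In each homeostasis list a smaller share of the scattered copies than of the array copies carried a peak. BMI1 lists had a peak on 6, 6 and 7 of the 28 scattered copies in replicates 1, 2 and 3, and H2AK119ub lists on 2, 9 and 7. Here the lowest count belonged to the shortest list and the highest to the longest. As a share of annotated copies, 73.6 ± 3.24% of the array (SD, n = 6 homeostasis lists) and 22.0 ± 8.27% of the scattered copies had a peak. The array exceeded the scattered copies in 6 of 6 lists, by 43.5 to 66.0 percentage points (mean 51.6 ± 7.88). This gap depended on the class of array copy. A peak in at least 1 homeostasis list was on 100% of the longer array copies and 43.75% of the shorter ones. It was on 39.3% of all scattered copies and 54.5% of those annotated as ribosomal RNA genes. Within single lists 31.25 to 43.75% of the shorter array copies had a peak, in each list above the share of all 28 scattered copies. Against the scattered ribosomal RNA genes alone the order differed between lists. The shorter array copies had the lower share in Homeostasis BMI1 replicate 2 (5 of 16 against 4 of 11). They also had it in Homeostasis H2AK119ub replicate 2 (6 of 16 against 5 of 11), and the higher share in the other homeostasis lists. A listed peak is also what chose the members, so the difference between array and scattered copies is a description and no p is given.

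**Figure D2:**
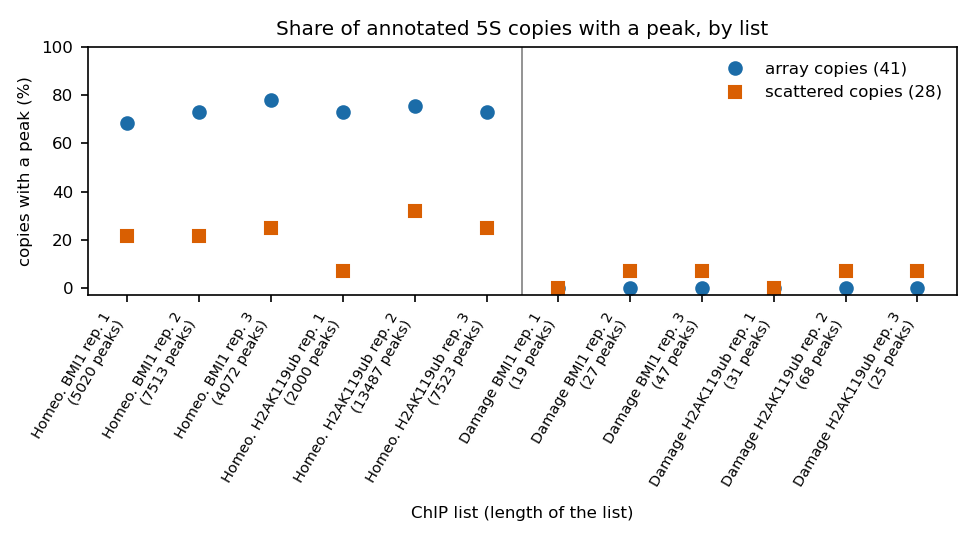
The vertical axis is the percentage of annotated 5S copies with a peak, for the 41 array copies (blue circles) and the 28 scattered copies (orange squares), in each of the 12 lists, with the length of each list given under its name. The array lies between 68.3 and 78.0% in the 6 Homeostasis lists and at 0 in the 6 Damage lists, and the scattered copies lie between 7.14 and 32.1% and between 0 and 7.14%.

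Among the 28 scattered copies 11 had a homeostasis peak. The most recurrent was n-R5s71, a pseudogene outside other genes on chromosome 11 (74319792 to 74319910), with a peak in all 6 lists. In 5 of 6 lists were n-R5s210, a pseudogene on chromosome 1 (37005439 to 37005557), n-R5s33, annotated as a ribosomal RNA gene inside Lrch3 on chromosome 16 (33001903 to 33002021), and n-R5s2, also a ribosomal RNA gene, on chromosome X (6106891 to 6107009). Homeostasis H2AK119ub replicate 1, the shortest list, had scattered peaks on n-R5s71 and n-R5s2 alone. With 4 lists each followed n-R5s211 on chromosome 1 (46374197 to 46374315) and n-R5s25 on chromosome 18 (34647400 to 34647518), both annotated as ribosomal RNA genes. The latter lies inside Cdc23, which encodes a subunit of the anaphase-promoting complex.

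The other scattered copies were listed in few libraries. The pseudogene n-R5s204 lies inside Nusap1, a gene for a protein of the mitotic spindle, on chromosome 2 (119631118 to 119631236), and had a peak in 3 lists. A peak on n-R5s209, a pseudogene on chromosome 1 (26959103 to 26959221), was in 2 lists, both H2AK119ub. Single peaks lay on n-R5s195 (chromosome 3, 39635964 to 39636082) and n-R5s151 (chromosome 7, 16471813 to 16471931, inside Npas1), both in Homeostasis H2AK119ub replicate 2, and on n-R5s88 in Homeostasis BMI1 replicate 1. By annotation, 6 of the 11 scattered copies called ribosomal RNA genes and 5 of the 17 pseudogenes had a homeostasis peak. By place, 5 of the 11 inside another gene and 6 of the 17 outside had one. Of all 69 copies, 25 lacked a peak in every list, 9 in the array and 16 scattered.

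BMI1 and H2AK119ub were then compared at homeostasis. All 32 array copies with a peak had both, and for 25 of them the number of lists was the same with each antibody. Of the other 7, 3 had more BMI1 lists and 4 more H2AK119ub lists. A peak in 2 or more of 3 lists was present on 32 array copies for either antibody, and on 7 scattered copies for BMI1 and 6 for H2AK119ub. That is 39 and 38 of 69 copies. Of all 49943 annotated genes, 3.8% met the same rule for BMI1 and 4.99% for H2AK119ub. Of the 4858 genes of 200 bp or less, 3.27% and 3.48% met it. Transfer RNA genes, also transcribed by RNA polymerase III, met it for 23.3% and 26.1% of 403, near the 25% and 21.4% of the scattered copies. A listed peak is what chose the members, so their count is not read against these shares. The share of scattered copies with a peak was 22.6 ± 2.06% (SD, n = 3) for BMI1 and 21.4 ± 12.9% for H2AK119ub. The difference of 1.19 percentage points was smaller than the pooled SD of 9.22, and its sign depended on single lists: without Homeostasis H2AK119ub replicate 1 it was -5.95. Of the 11 scattered copies, 7 had both antibodies, 1 had BMI1 peaks alone and 3 H2AK119ub peaks alone. No test was made: with groups of 3 an exact permutation p cannot fall below 0.1.

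Peaks sat at a preferred place on the array units. The RefSeq table used gives no strand, so positions are in genome direction and not along the gene. Over the 181 array peaks the peak centre lay a mean of 13.8 bp before the midpoint of the copy, and 178 of 181 centres lay before it. All 32 copies had a mean offset below 0, from -19.8 to -10.3 bp. Since it is uncertain which unit the reads came from, the 32 copies may not be independent positions. The list means were -15.8, -13.7 and -14.1 bp for BMI1 and -14.3, -11.9 and -13.0 bp for H2AK119ub, so the antibodies overlapped. Repeat positions on a copy were close, with a median SD between lists of 4.24 bp, and the means of different array copies had an SD of 2.61 bp.

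Scattered copies each had their own offset in genome direction. Their strand was not given, so differences between copies, in sign above all, cannot be read along the gene. Of the 8 with 2 or more homeostasis peaks, 7 had a mean above 0 and 1 below, with an SD between copies of 16.7 bp, although the median SD between lists on a copy was 5.77 bp. Peaks on n-R5s211 were 30.1 ± 2.17 bp past the midpoint (SD, n = 4 lists), those on n-R5s33 29.0 ± 6.04 bp past it (n = 5), and those on n-R5s71 15.5 ± 4.32 bp past it (n = 6). Peaks on n-R5s25 lay before it, at -18.5 ± 6.14 bp (n = 4).

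**Figure D3:**
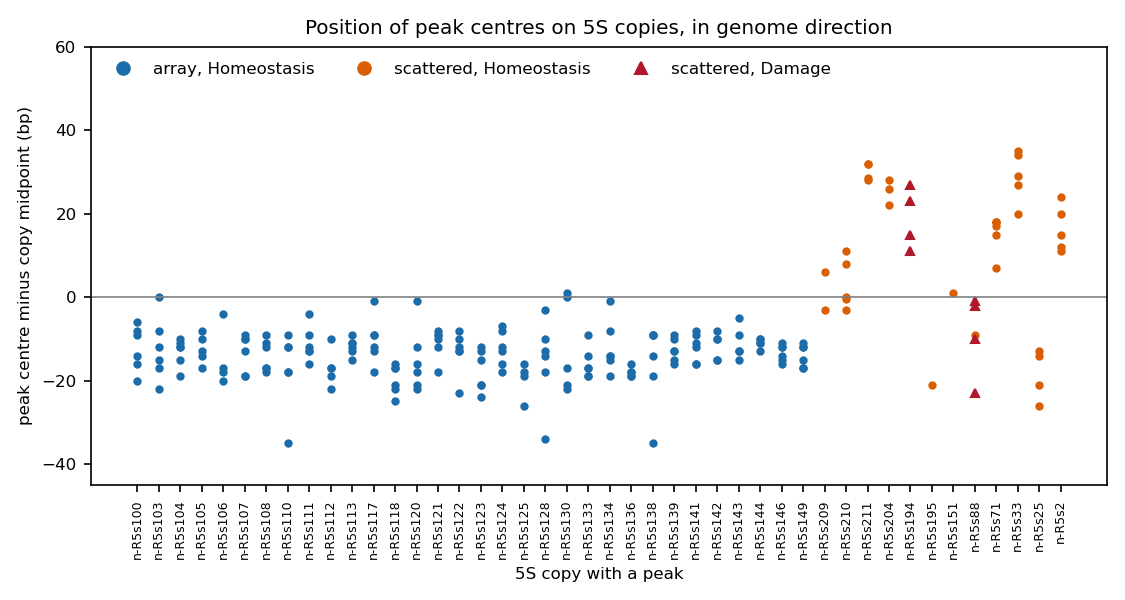
Each point is 1 peak, plotted by the distance in bp from the midpoint of its 5S copy to the peak centre in genome direction, for the 44 copies with a peak. Array peaks (blue) lie below 0 on all 32 copies apart from 3 points at 0 or above, while scattered copies (orange for Homeostasis, red triangles for Damage) lie on both sides of 0, each copy at its own level.

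Width hardly varies in these lists, where 95.9% of peaks are 101 bp wide. Some peaks are merged from 2 peaks, and a merged peak can still have the usual width. In Damage BMI1 replicate 1, for example, 15.8% of peaks were merged and the mean width was 101 bp. All 181 array peaks had the usual width and 0 were merged. Of the 37 scattered homeostasis peaks, 6 were merged and wider, on n-R5s2, n-R5s210, n-R5s211 and n-R5s71. Elsewhere in the 6 lists 2.65 to 5.70% of peaks were merged. With array and scattered copies pooled, the mean width in the homeostasis lists was 101.2 bp on 5S copies and 101.5 bp elsewhere. The difference of -0.227 ± 0.342 bp (SD, n = 6) was below 0 in 5 of 6 lists and did not pass an exact two-sided sign-flip permutation test (p = 0.1875, adjusted over 2 tests 0.1875).

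The rows of a list are not sorted by position, and no label says what orders them. The make-up of the rows changed down the rows of each homeostasis list: the first 10% held 15.0 to 28.5% merged peaks and the last 10% held 0, and peaks found again in another homeostasis list went from 85.1 to 99.9% in the first 10% to 18.5 to 87.7% in the last. Array peaks sat together in this order. In Homeostasis H2AK119ub replicate 2 all 31 lay between 1.55 and 9.62% of the way down the list (median 2.80%), and in replicate 3 between 3.30 and 12.1% (median 5.94%). In Homeostasis BMI1 the medians were 27.7, 9.26 and 11.5% in replicates 1, 2 and 3. The shortest list, Homeostasis H2AK119ub replicate 1, differed, with a median of 44.7% and a range from 23.4 to 91.95%. In total 169 of 181 array peaks were in the first 50% of their list. Scattered peaks spanned a wider range of rows than array peaks in 4 of the 6 lists, for example from 3.98 to 70.6% in Homeostasis H2AK119ub replicate 2. They spanned a narrower one in replicate 1 of both antibodies, from 1.61 to 23.4% with BMI1 and from 12.9 to 63.6% with H2AK119ub.

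**Figure D4:**
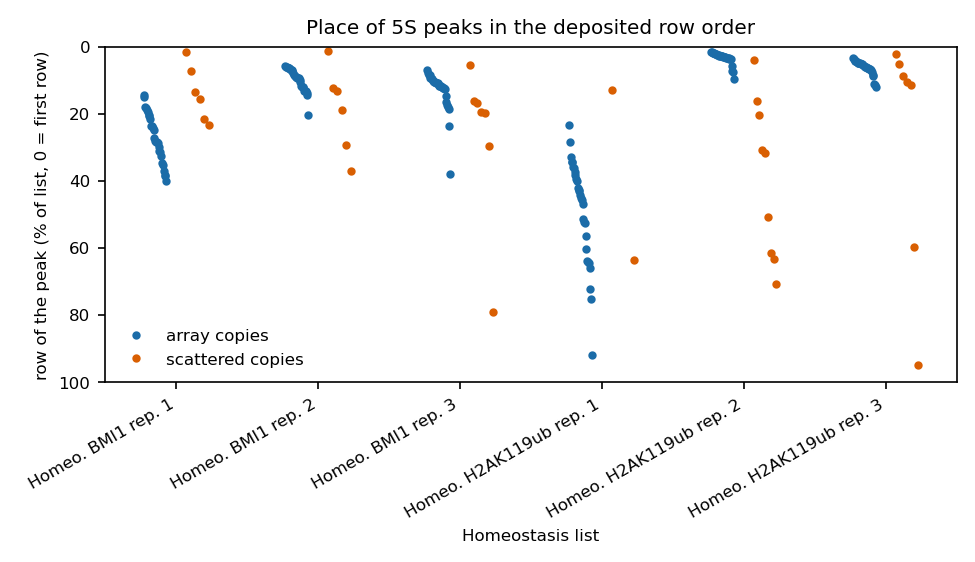
The vertical axis gives the row of each 5S peak as a percentage of the list, with the first row at the top, for array (blue) and scattered copies (orange) in the 6 Homeostasis lists. Array peaks form a compact group in the upper 50% of 5 lists and run from 23.4 to 91.95% in Homeostasis H2AK119ub replicate 1.

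After paraquat, array copies had no listed peak and 2 scattered copies did. The 6 Damage lists held 217 peaks, of which 0 lay on the array, a count that allows a share of up to 1.38% (3 peaks of 217), or up to 1.69% by the exact 95% binomial interval. The first limit exceeds the share of the array in 5 of the 6 homeostasis lists (0.230 to 0.786%), and the second also exceeds the 1.5% of Homeostasis H2AK119ub replicate 1. Damage lists had 19 to 68 peaks, and the first 68 rows of each homeostasis list also held 0 array peaks: the earliest stood in row 209. Both limits pool the 6 lists and leave out variation between libraries. The row comparison rests on an order that no label explains. On these counts, a lower share of a list on the array after paraquat was not detectable with lists of this length.

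The Damage peaks on scattered copies were on n-R5s194 and n-R5s88. Both had a peak in the same 4 lists, replicates 2 and 3 of Damage BMI1 and replicates 2 and 3 of Damage H2AK119ub, and in neither replicate 1. The 5S gene n-R5s194 lies outside other genes on chromosome 3 (4338998 to 4339116) and was in 0 of 6 homeostasis lists. Its peaks were centred 11 and 15 bp past the midpoint in the BMI1 lists and 27 and 23 bp past it in the H2AK119ub lists. The pseudogene n-R5s88 lies inside Ephb1, which encodes an ephrin receptor, on chromosome 9 (102127887 to 102128005). Its peaks were centred at -23 and -10 bp with BMI1 and at -2 and -1 bp with H2AK119ub. Scattered copies, too, had 0 peaks in the first 68 rows of each homeostasis list, against 2 in each of these 4 Damage lists. In Homeostasis BMI1 replicate 1, the sole homeostasis list with n-R5s88, the centre was at -9 bp and the peak stood in row 81 of 5020. For each antibody this is 2 of 69 copies with a peak in 2 or more of 3 Damage lists, where 0.012% of all annotated genes met the rule for BMI1 and 0.01% for H2AK119ub, and 0.0412% of genes of 200 bp or less for either. As above, the members were chosen for having a peak and nothing is read from this.

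The share of a list on 5S copies spanned a wide range after paraquat, in lists that were short. Damage BMI1 lists had 0 of 19, 2 of 27 and 2 of 47 peaks on 5S copies, or 0, 7.41 and 4.26%, and Damage H2AK119ub lists had 0 of 31, 2 of 68 and 2 of 25, or 0, 2.94 and 8.0%. Homeostasis lists had 0.677, 0.479 and 0.958% for BMI1 and 1.6, 0.297 and 0.492% for H2AK119ub. In 4 Damage lists the share was above every homeostasis list and in 2 it was 0, so the groups overlapped. Exact 95% binomial (Clopper-Pearson) intervals, for the counting of peaks alone, reached from 0.910 to 24.3% for Damage BMI1 replicate 2 and from 0.984 to 26.0% for Damage H2AK119ub replicate 3. The mean difference of 3.02 percentage points within antibody compared with a pooled SD of 2.77, and it was 1.93 without Damage H2AK119ub replicate 3 and 1.18 with ribosomal RNA genes only. It has no test, because a peak on a 5S copy is what chose the members.

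**Figure D5:**
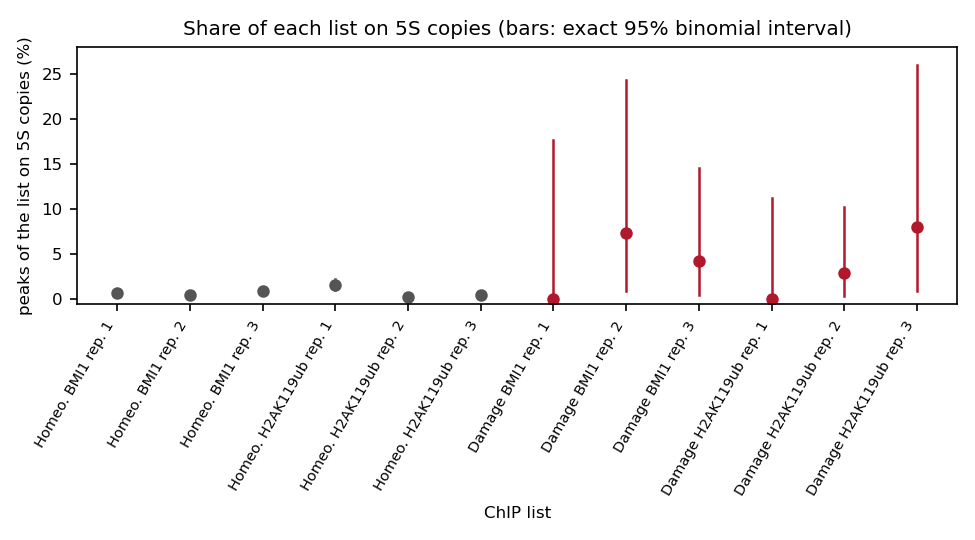
Points give the percentage of the peaks of each list that lie on 5S copies, with exact 95% binomial intervals as bars, grey for Homeostasis and red for Damage. The homeostasis lists lie between 0.297 and 1.6% with narrow bars, and the Damage lists between 0 and 8.0% with bars that reach 26.0%.

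Other genes of the 5S pathway and of RNA polymerase III were looked up in the same lists. Of 46 symbols in 5 lists, 41 were found with a position on the chromosomes. A homeostasis peak lay on 2 of these 41, in 1 list each, and a Damage peak on 0. Over all annotated genes 9.77% had a peak in at least 1 homeostasis list and 0.138% in at least 1 Damage list, so low counts over 41 genes do not set these genes apart. They were Rn7s2, a gene for the 7SL RNA of the signal recognition particle (Homeostasis H2AK119ub replicate 3), and Gtf3c3, which encodes a subunit of TFIIIC (Homeostasis H2AK119ub replicate 2, chromosome 1, 54395877 to 54439026). None of the 7 matched genes for 5S binding and assembly had a peak, nor had any of the 14 in the list of polymerase subunits. Genes of transfer RNA, which are likewise transcribed by RNA polymerase III, had a peak on 80, 95 and 109 of 403 genes in the BMI1 homeostasis lists and on 90, 111 and 118 in the H2AK119ub lists. In the Damage lists they had a peak on 0, 2 and 0 genes with BMI1 and on 0, 1 and 0 with H2AK119ub. The 2 peaks in Damage BMI1 replicate 2 were 7.41% of that list, the same share as on 5S copies.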

How the data were processed

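ChIP-seq peak lists of BMI1 and H2AK119ub were used from 12 libraries, 3 in each of 4 groups, set by the labelled treatment and antibody. Bowtie2 (no version stated), HOMER 4.8 and the build GRCm38 are named, per the submitters' processing notes. Peak settings, thresholds and the use of Input are not stated in the labels or headers. The lysate was precleared with, and complexes were collected on, protein A agarose with salmon sperm DNA, per the labels' protocols. The authors deposited 1 list per library, and their score column holds 1 throughout, so the deposited score was not used. No reads were used, depth is unknown, and intervals cover the counting of peaks only.

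Peaks were placed on 5S copies of the RefSeq table of GRCm38.p6, which gives gene bounds without strand. The planned offset along the gene strand was replaced by one in genome direction. The width difference was tested by exact sign flips within lists, with its p adjusted over 2 tests. The other planned test, of array against scattered copies, is not reported, since a listed peak also chose the members. Shares of lists and the antibody difference have no test. Alternatives were the overlap rule, ribosomal RNA genes without pseudogenes, the bounds of the array, merging within 1 kb, assembled chromosomes, medians, leaving out each list, and a block for the replicate number. Array copies under other symbols were added after the data were seen.

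The members, gene lists and tests were chosen with earlier results of these data known. The rule for naming copies took those with a peak in 2 or more Damage lists, the 12 scattered copies in most homeostasis lists (11 had any) and 8 array copies by the same order, with ties by position. Python 3.11.15, numpy 2.4.6, pandas 2.3.3, scipy 1.17.1 and matplotlib 3.10.9 were used, and the overlap and sign-flip procedures were tested on simulated data.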

Additional observations from a re-analysis of the deposited data

How the results depend on the processing

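The array exceeded the scattered copies in every homeostasis list under all alternatives run: the mean difference of 51.6 percentage points was 45.1 with ribosomal RNA genes only and 55.4 with array copies under other symbols included, and 48.7 to 53.2 when a list was left out. Taking the replicate number as a block (lists of the same number averaged) cannot change this mean, so the 51.6 under it is no check. Same-numbered BMI1 and H2AK119ub homeostasis lists had correlations of 0.17, 0.08 and -0.05 over the presence of merged regions. Lists of other numbers had -0.225 to 0.098, and BMI1 replicates 2 and 3 correlated best with another number. Values this low, from lists of unlike length, cannot show whether same-numbered lists share material. No label states a pairing, and the number was not taken as one. The block likewise could not change the antibody difference of 1.19 percentage points, and the treatment difference of 3.02 was computed without it. The antibody difference ran from -5.95 to 6.55 when a list was left out. The treatment difference ran from 1.93 to 3.99, and was 1.18 with ribosomal RNA genes only, which removes n-R5s88. The width difference ran from -0.358 to -0.160 bp when a list was left out. A peak centre inside the copy, or an overlap of at least 50% of the shorter feature, selected the same peaks. The offset along the gene strand was not run, since no strand was given. Damage values rest on 8 peaks on 2 copies.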
